A study of Mus musculus with 15 samples.

Results

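miR-22 was followed through small RNA libraries of mouse Kupffer cells, the macrophages that reside in the liver. Its members were all listed rows whose name begins with miR-22-, which gave 2 of the 248 mature miRNAs listed, miR-22-3p and miR-22-5p. The miRNA was chosen by the mean level of miR-22-3p, the highest in these libraries, so its levels and ranks are given as a description with no test. The libraries came from C57BL/6J mice (wt) at 9 weeks (n = 4) and 14 weeks (n = 4), and from ob/ob mice at 9 weeks (n = 3) and 14 weeks (n = 4). The ob/ob mouse lacks functional leptin, eats in excess and becomes obese, and no group received a further treatment according to the labels. Nothing in the labels says whether a library is 1 mouse or a pool, so the p-values measure the spread between these libraries, which may be in part technical.

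A miRNA is cut from the 5′ and 3′ sides of an RNA hairpin. One strand of the resulting duplex, the guide, is usually kept in an Argonaute protein and pairs with target mRNAs through its seed, bases 2 to 8, while the other strand is mostly degraded. miR-22 is made in many tissues, including liver and blood cells, and its 3p strand is the usual guide. In other cells it is known to repress Ppara, Sirt1 and Hdac4, which act in lipid metabolism, deacetylation and gene silencing.

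The RefSeq mature sequences and the hairpin (GRCm38.p6, + strand of chromosome 11) are shown because the arm that is read differs so widely between the 2 sides. Capitals mark the seed in the mature sequences and the arms in the hairpin. miR-22-5p lies at chr11:75463734-75463755, miR-22-3p at chr11:75463772-75463793 and the hairpin at chr11:75463716-75463810.
miR-22-5p: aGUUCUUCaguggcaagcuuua
miR-22-3p: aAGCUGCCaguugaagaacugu
Mir22 hairpin: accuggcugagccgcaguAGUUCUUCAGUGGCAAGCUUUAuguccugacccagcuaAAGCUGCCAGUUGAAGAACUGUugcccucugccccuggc
In a predicted fold of the hairpin, 19 of the 22 bases of the 3p arm paired with the 5p arm, and 16 bases lay between the arms. The hairpin lies in exon 2 of both of the 2 annotated transcripts of Mir22hg, a long noncoding host gene (GENCODE vM21, chr11:75461539-75466676), and RefSeq lists 1 locus for it. The seed of miR-22-3p, AGCUGCC, and that of miR-22-5p, GUUCUUC, each occurred in no other mouse miRNA of the RefSeq table, so neither arm has a listed relative with the same seed.

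The values are reads per 1000000 (RPM) with 1 table per age, and the step between values put the libraries at 9.08 to 98.1 M reads of depth (M, 1000000). The 248 miRNAs together held 147387 to 358621 RPM, lowest in wt replicate 1 at 14 weeks, which was also the shallowest library. All libraries of 9 weeks were read in lane 2, and at 14 weeks replicates 1 and 2 of each genotype in lane 1 and replicates 3 and 4 in lane 2. Of 6 macrophage markers 3 were listed, with a summed level of 1833 to 4465 RPM over all libraries, nearly all of it miR-142a-5p, a miRNA of blood-derived cells, while miR-142a-3p was at 0 in at least 1 library of 3 groups. The endothelial pair, miR-126a-5p and miR-126a-3p, summed to 10833 to 63153 RPM. Levels are therefore those of the sampled preparation, and fewer cells of a type cannot be told apart from less RNA per cell. Hepatocyte markers (4 of 5 listed) summed to 1099 to 2222 RPM in wt and 3169 to 6899 RPM in ob/ob libraries of both ages. The single listed erythroid marker, miR-144-5p, had 0.331 to 1.49 RPM in wt and 11.6 to 32.4 RPM in ob/ob libraries. Over all libraries the lymphocyte list (3 of 3 listed) summed to 4935 to 8207 RPM. Nearly all of this was miR-181a-5p, with group means of 5532 to 7241 RPM, against 143 to 261 RPM for miR-150-5p. The mesenchymal and stellate list (7 of 8) summed to 496 to 3011 RPM and the biliary list (4 of 5) to 22.7 to 103.4 RPM.

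miR-22-3p was among the 3 most abundant miRNAs in all 15 libraries, with 27037 to 61428 RPM and a median of 45669 RPM. In wt at 9 weeks its level was 61428, 46785, 49152 and 56463 RPM in replicates 1 to 4. In ob/ob at 9 weeks it was 35387, 52230 and 34777 RPM in replicates 1 to 3, so that replicate 2 lay among the wt libraries and the other two below them. In wt at 14 weeks it was 27037, 44066, 45669 and 41785 RPM, with replicate 1 well below the rest. In ob/ob at 14 weeks it was 43667, 42728, 54120 and 50621 RPM, and these libraries overlapped the 3 higher wt libraries.

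By group mean the order was wt at 9 weeks with 53457 ± 6724 RPM (SD, n = 4), ob/ob at 14 weeks with 47784 ± 5499 RPM (n = 4), ob/ob at 9 weeks with 40798 ± 9905 RPM (n = 3) and wt at 14 weeks with 39639 ± 8552 RPM (n = 4). Each neighbouring pair of means in this order lay closer than the larger of its 2 SDs. The 2 ages come from separately made tables and are set side by side without a test.

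**Figure D1:**
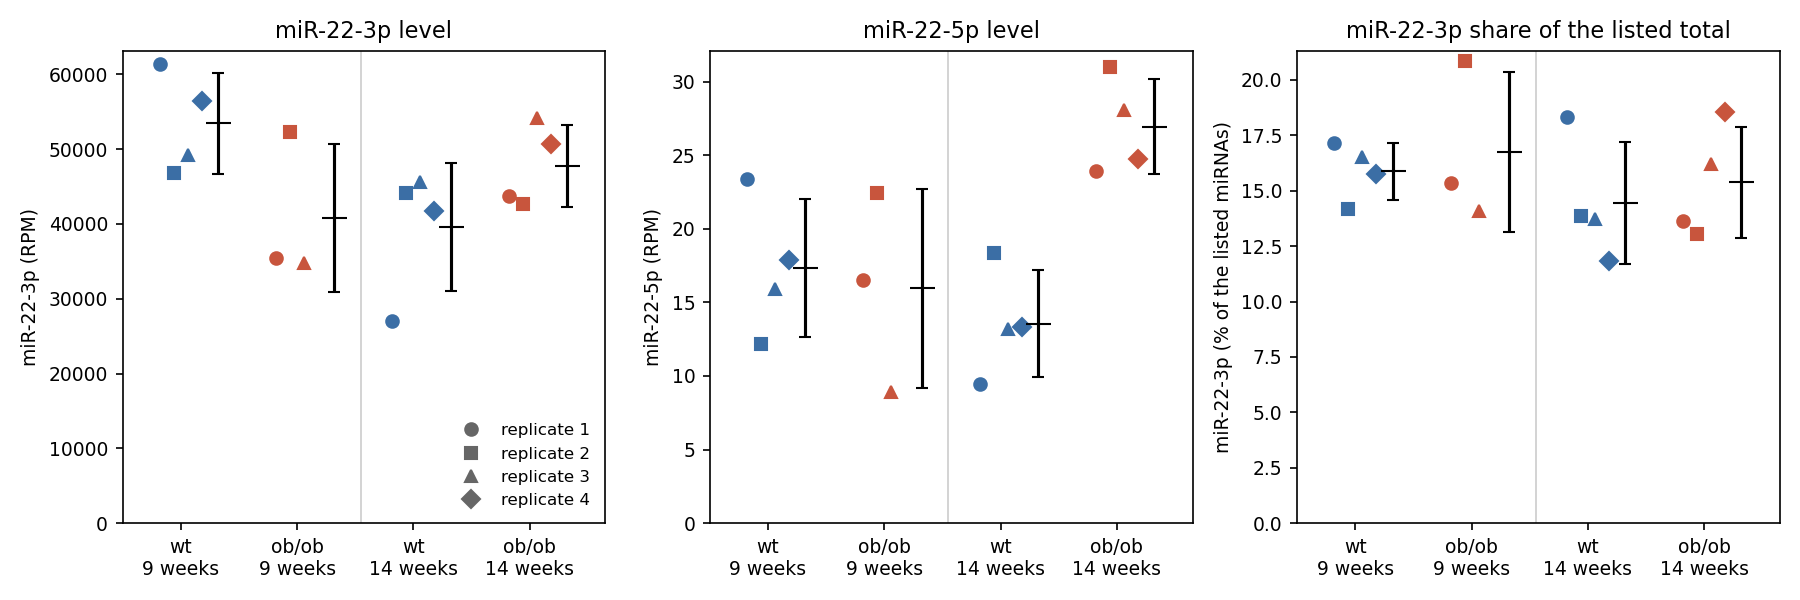
Level of miR-22-3p (left) and miR-22-5p (middle) in RPM, and share of the summed level of the 248 listed miRNAs held by miR-22-3p (right, %), in each library. Blue marks are wt, red marks are ob/ob, the shape gives the replicate and the bars give mean ± SD. The miR-22-3p groups overlap at both ages, while the 4 ob/ob libraries at 14 weeks hold 24.0 to 31.0 RPM of miR-22-5p, above the 4 wt libraries of that age at 9.47 to 18.3 RPM.

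miR-22-3p had rank 1 in 8 libraries, rank 2 in 5 and rank 3 in 2. In each of the other 7 libraries miR-126a-5p, an endothelial miRNA encoded in an intron of Egfl7, ranked first. By group mean miR-22-3p led in 3 groups and was second in wt at 14 weeks, where miR-126a-5p had 42482 RPM. Over the 4 group means the level averaged 45420 RPM for miR-22-3p, 41649 RPM for miR-126a-5p, 29151 RPM for miR-10a-5p, 27293 RPM for miR-21a-5p and 24291 RPM for let-7f-5p. The lead over miR-126a-5p was not steady, since the ratio of miR-22-3p to miR-126a-5p ran from 0.703 to 3.0 over the 15 libraries. The remaining miRNAs of the 10 highest were miR-26a-5p, miR-16-5p, miR-27b-3p, miR-191-5p and miR-181a-5p, the last with 6473 RPM.

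miR-126a-5p had no entry in the RefSeq table used, so its seed was not compared. The abundant miR-10a-5p, miR-21a-5p and let-7f-5p have seeds unlike each other and unlike that of miR-22-3p. They are printed for comparison with the miR-22-3p sequence, with the seed in capitals. miR-10a-5p lies at chr11:96317186-96317208 and miR-21a-5p at chr11:86584120-86584141, and let-7f-5p comes from loci on chromosomes 13 and X.
miR-10a-5p: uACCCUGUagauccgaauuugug
miR-21a-5p: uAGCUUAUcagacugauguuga
let-7f-5p: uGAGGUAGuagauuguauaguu
The let-7f-5p seed was shared by 9 listed miRNAs and that of miR-10a-5p by 2, whereas miR-22-3p and miR-21a-5p were each the only listed miRNA with their seed.

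**Figure D2:**
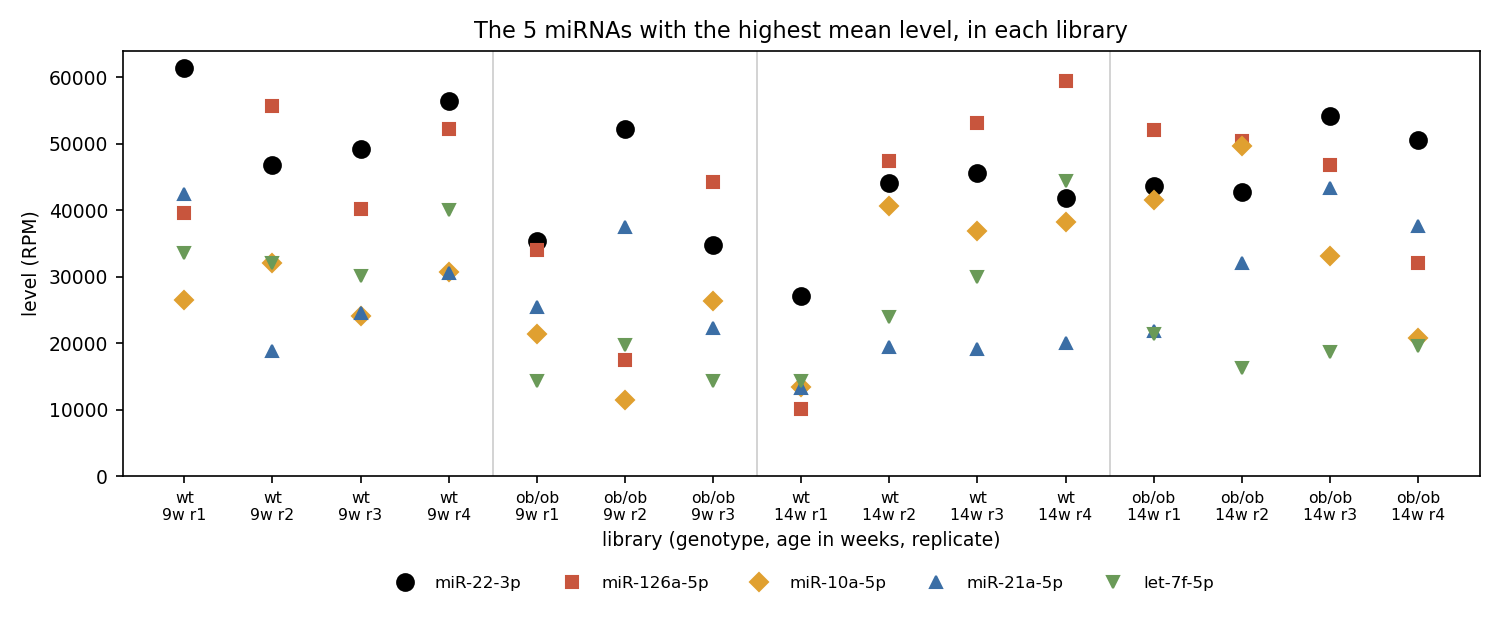
Level in RPM of the 5 miRNAs with the highest mean, in each of the 15 libraries. The black circles (miR-22-3p) stay among the 3 highest values in every library, while miR-126a-5p (red squares) moves from well above to well below them, down to 10086 RPM in wt replicate 1 at 14 weeks.

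miR-22-3p held between 11.8% and 20.9% of the summed level of the listed miRNAs in the 15 libraries. The Wilson 95% interval of each of these shares was at most 0.0656 percentage points to either side, which covers counting error only. At 9 weeks the share was 17.1%, 14.2%, 16.5% and 15.7% in wt and 15.3%, 20.9% and 14.1% in ob/ob. Of the ob/ob libraries, replicate 2 lay above the wt range, replicate 3 just below it and replicate 1 inside it, with means of 15.9% ± 1.29 in wt and 16.8% ± 3.60 in ob/ob (two-sided exact permutation p = 0.8, adjusted over 4 tests 0.8). At 14 weeks the share was 18.3%, 13.9%, 13.7% and 11.8% in wt and 13.7%, 13.1%, 16.2% and 18.5% in ob/ob. The groups overlapped over nearly their whole range, with means of 14.4% ± 2.77 and 15.4% ± 2.52 (exact permutation p = 0.714, adjusted 0.8). The difference had opposite signs in the lanes, at -2.75 percentage points (ob/ob minus wt) in lane 1 and 4.61 in lane 2, each from 2 libraries a genotype.

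The change of miR-22-3p with genotype did not pass the threshold at either age, and lay near the middle of all miRNAs. At 9 weeks log2(RPM + 0.5) was lower in ob/ob by -0.41 ± 0.19 (difference ± SE, 95% interval -0.85 to 0.04), with limma's Benjamini-Hochberg adjusted p = 0.129. In that comparison 67 of 179 miRNAs tested were called (37.4%), 58 of them lower, and the median change was -0.51. Expressed against this shift by median-ratio rescaling, the miR-22-3p change was 0.10 ± 0.16 (limma, adjusted p = 0.695). Without ob/ob replicate 2, the library with the highest share, the deposited-scale value was -0.60 with a limma adjusted p of 0.0193. In that fit 71 of 186 miRNAs tested were called, 63 of them lower, and the median change was -0.56, so miR-22-3p again lay near the middle. At 14 weeks the change was 0.29 ± 0.24 (95% interval -0.24 to 0.82, limma adjusted p = 0.448), beside a median of 0.20 over 171 miRNAs. It was 0.12 without wt replicate 1 (limma adjusted p = 0.478), 0.32 in lane 1, 0.26 in lane 2 and 0.07 ± 0.16 after rescaling (limma adjusted p = 0.771).

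miR-22-5p, the opposite strand of the same hairpin, was rare, ranking 84 to 109 of the 248. In wt its level was 23.4, 12.1, 15.9 and 17.9 RPM at 9 weeks and 9.47, 18.3, 13.2 and 13.3 RPM at 14 weeks. At 9 weeks ob/ob libraries had 16.5, 22.4 and 8.94 RPM, and those of 14 weeks had 24.0, 31.0, 28.1 and 24.8 RPM. The 9 week groups overlapped, although ob/ob replicate 3 lay below every wt library, with 17.3 ± 4.69 RPM in wt and 16.0 ± 6.77 RPM in ob/ob. At 14 weeks every ob/ob library lay above every wt library, with 26.9 ± 3.23 RPM against 13.6 ± 3.64 RPM. These levels rest on 86 to 3039 implied reads per library, and the lowest count, in wt replicate 1 at 14 weeks, gave a Poisson 95% interval of 7.58 to 11.7 RPM for counting error alone.

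At 14 weeks miR-22-5p rose in ob/ob by 0.99 ± 0.26 on the log2(RPM + 0.5) scale, a 1.99-fold change (95% interval of the log2 change 0.41 to 1.57, limma adjusted p = 0.0301, higher in 4 of 4 libraries). It was 1 of 20 miRNAs called higher among 171 tested (11.7%), and 1 of 38 whose ob/ob libraries all lay above the wt libraries (22.2%). After median-ratio rescaling the change was 0.78 ± 0.19 (limma adjusted p = 0.0164), when 15.5% of the miRNAs tested were called higher. The change was 1.02 in lane 1 (limma adjusted p = 0.657) and 0.97 in lane 2 (limma adjusted p = 0.0326). It ranged from 0.84 to 1.15 with single libraries left out. The limma adjusted p then passed the threshold when wt replicate 1, wt replicate 2 or ob/ob replicate 1 was the library omitted, and missed it without wt replicate 3 (0.0829), wt replicate 4 (0.0734), ob/ob replicate 2 (0.0883), ob/ob replicate 3 (0.0948) or ob/ob replicate 4 (0.0646). At 9 weeks the change of miR-22-5p was -0.17 ± 0.35 (limma adjusted p = 0.725), 0.18 without ob/ob replicate 3, and 0.32 after rescaling (limma adjusted p = 0.503).

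Depth and some markers of other cell types were also higher in ob/ob at 14 weeks. Depth was 44.0 to 98.1 M reads in ob/ob and 9.08 to 39.0 M in wt, with no overlap. The hepatocyte sum was 5454 ± 1601 RPM against 1471 ± 279 RPM, most of it miR-192-5p with 5212 ± 1590 against 1317 ± 247 RPM, which is also made in other epithelia. miR-192-5p and miR-194-5p were called higher, while miR-122-5p, the main miRNA of hepatocytes, overlapped between the groups (54.9 ± 17.9 against 46.7 ± 39.2 RPM, limma adjusted p = 0.551), as did miR-122-3p. The erythroid miR-144-5p and the biliary miR-141-3p (56.2 ± 19.0 against 23.5 ± 6.23 RPM, limma adjusted p = 0.0495) were called higher as well. The miR-141-3p groups overlapped, and the other listed biliary markers were not called. Their limma adjusted p was 0.592 for miR-200a-3p, 0.448 for miR-200b-3p and 0.339 for miR-200c-3p. At 9 weeks the hepatocyte sum was likewise higher in ob/ob (4842 ± 797 against 1737 ± 512 RPM), and depth was 31.0 ± 4.46 against 16.1 ± 4.44 M reads. Unlike at 14 weeks, miR-122-5p was called higher at 9 weeks, with 166 ± 57.9 RPM in ob/ob against 46.3 ± 29.0 RPM in wt (limma adjusted p = 0.0244). The part of these differences in the miR-22-5p result was not tested.

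miR-22-3p exceeded miR-22-5p by 1379-fold to 3891-fold in RPM, so that at most 0.0725% of the reads of both arms were of the 5p arm. The ratio of the arms does not depend on how a library was scaled, but it can depend on how reads were assigned to the arms. That step is not known here, and some arms show uneven values at 14 weeks. miR-142a-3p had 0 to 0.0844 RPM in wt and 0.159 to 18.6 RPM in ob/ob, beside 2415 ± 449 and 3279 ± 722 RPM of miR-142a-5p. In ob/ob miR-126a-3p was at 0 in 1 library and reached 3733 RPM, beside 32093 to 52046 RPM of miR-126a-5p. miR-199b-3p was at 0 in 2 wt libraries and at 209 to 337 RPM in ob/ob. The part of read assignment in the miR-22 ratio was not tested. The log2 ratio at 9 weeks was 11.33, 11.85, 11.55 and 11.58 in wt and 11.02, 11.15 and 11.85 in ob/ob, which overlapped, with a difference of -0.24 (exact permutation p = 0.343, adjusted over 4 tests 0.686). At 14 weeks it was 11.40, 11.19, 11.71 and 11.56 in wt and 10.80, 10.41, 10.89 and 10.97 in ob/ob, with all ob/ob libraries below all wt libraries. The means were 11.47 ± 0.22 and 10.77 ± 0.25, a difference of -0.70. The exact permutation p was 0.0286, the smallest that 4 against 4 libraries allow, and 0.114 after adjustment over the 4 tests, which misses the threshold. The difference was -0.69 in lane 1 and -0.71 in lane 2. The 5p arm made up 0.0343% ± 0.0055 of the reads of both arms in wt and 0.0570% ± 0.0106 in ob/ob.

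The same ratio was compared over hairpins with both arms above the filter and neither arm at 0 in any library of that age. This comparison was added after the data were seen. It left out miR-126a at 14 weeks, where miR-126a-3p was at 0 in 1 ob/ob library. At 14 weeks the log2 ratio of miR-22-3p to miR-22-5p differed by -0.70 ± 0.24 (limma adjusted p = 0.0281), 1 of 14 ratios called among 28 hairpins (50.0%) and 1 of 11 with no overlap between the groups (39.3%). The main arm of each hairpin was taken as the one with the higher mean in wt. Of the 14 called, 11 had a lower share of the rarer arm in ob/ob, and miR-22, miR-132 and miR-423 had a higher one. The median change of the rarer arm against the main arm was -0.47, with 8 of the 28 above 0. miR-22 was second in this order after miR-423, whose change was 1.06 and whose arms were near balance (mean log2 ratio of 3p to 5p -0.46 in wt and 0.60 in ob/ob), so that its main arm differed between the genotypes. The call on miR-22 was lost without wt replicate 3 (limma adjusted p = 0.0860), ob/ob replicate 2 (0.0527) or ob/ob replicate 3 (0.0730). At 9 weeks the difference was -0.24 ± 0.25 (limma adjusted p = 0.505), where 7 of 30 hairpins were called (23.3%), and miR-22 was the 10th highest in its change of the rarer arm.

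**Figure D3:**
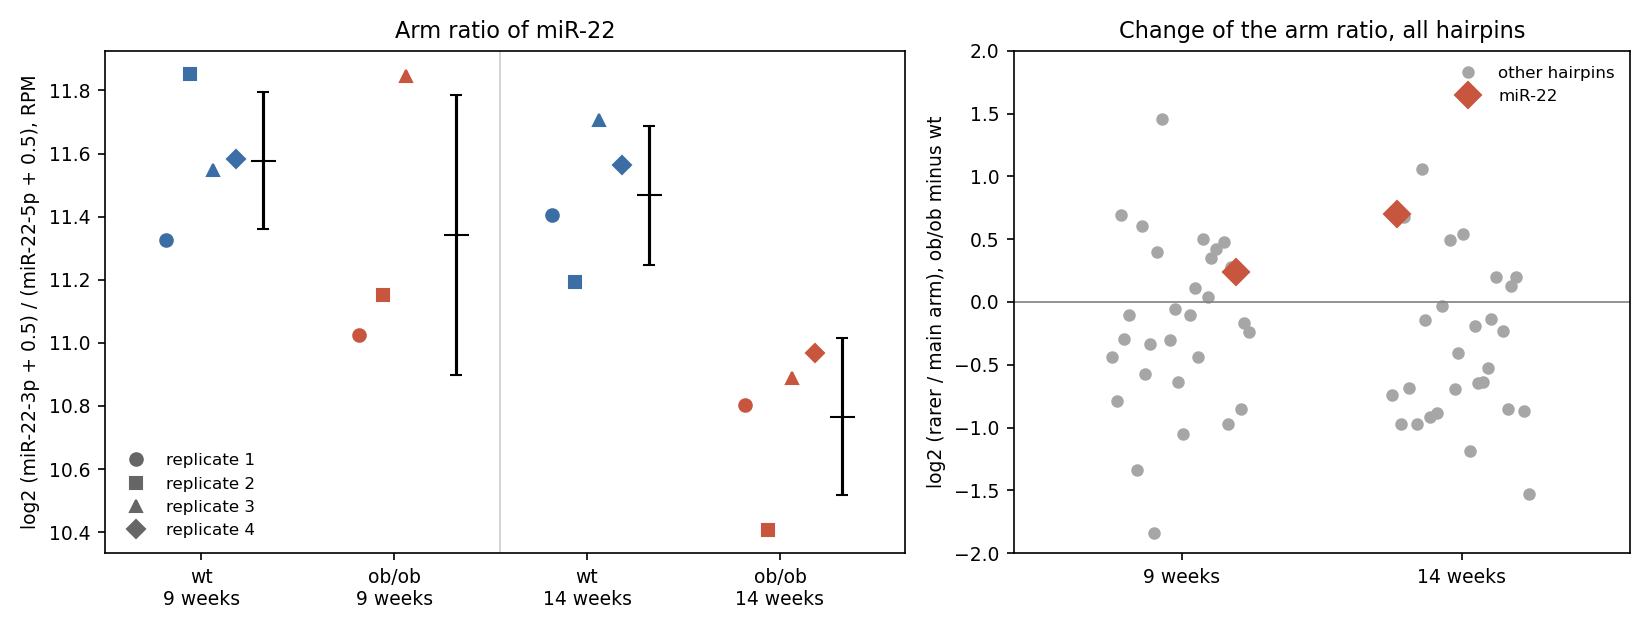
Left, log2 ratio of miR-22-3p to miR-22-5p (0.5 RPM added to each) in each library, with mean ± SD beside each group and an axis that does not start at 0. Right, the change of the rarer arm against the main arm (log2, ob/ob minus wt) for 30 hairpins at 9 weeks and 28 at 14 weeks, where points are spread sideways only to be seen. At 14 weeks the ob/ob libraries lie at 10.41 to 10.97, below wt at 11.19 to 11.71, and miR-22 has the second highest point of the 28, below miR-423 at 1.06, and 8 of the 28 lie above 0.

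The effect of ob/ob was not shown to differ between the ages for either arm. The difference of the log2 changes (14 minus 9 weeks, interaction term over 15 libraries) was 0.70 ± 0.30 for miR-22-3p (limma adjusted p = 0.170), next to a median of 0.68 over the 187 miRNAs tested, and -0.03 after rescaling. For miR-22-5p it was 1.16 ± 0.43 (limma adjusted p = 0.132), and 0.46 after rescaling (limma adjusted p = 0.664). None of the 187 miRNAs was called in the interaction (0.0%) by limma, 48 had an unadjusted p under 0.05, and limma-voom on implied reads called 0. The interaction of the arm ratio was not tested.

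Likeness to miR-22-3p was measured as Pearson's r of log2(RPM + 0.5) over the 15 libraries, for 124 other miRNAs with at least 1 RPM in every library. Since all miRNAs of a library share its depth and scaling, r is a description, and the median over the 124 was 0.44. The 5 highest were miR-107-3p (r = 0.96), miR-339-5p (0.94), miR-29a-3p (0.91), miR-16-5p (0.88) and miR-142a-5p (0.86). The 3 lowest were miR-127-3p (-0.20), miR-184-3p (-0.23) and miR-122-5p (-0.25). Without wt replicate 1 at 14 weeks, which had the lowest summed level, r was 0.77 for miR-16-5p and 0.94 for miR-339-5p.

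After median-ratio rescaling of all 15 libraries together the median r was 0.09. The highest were then miR-339-5p (0.87), miR-107-3p (0.84), miR-142a-5p (0.79), miR-21a-5p (0.77) and miR-378a-3p (0.77). Of these miR-107 and miR-378a lie in introns of the metabolic genes Pank1 and Ppargc1b, and miR-142a is a marker of blood-derived cells. The 3 lowest were miR-10a-5p (-0.92), miR-497a-5p (-0.87) and miR-195a-5p (-0.86), both of these from 1 cluster. miR-126a-5p had r = -0.61, and -0.72 without wt replicate 1 at 14 weeks. Without the 2 libraries farthest from the median of miR-22-3p, ob/ob replicate 2 at each age, r was 0.80 for miR-339-5p, 0.93 for miR-142a-5p and -0.85 for miR-10a-5p. Within 9 and 14 weeks, r was 0.85 and 0.88 for miR-339-5p and -0.88 and -0.95 for miR-10a-5p. The arms of miR-22 had r = 0.63 with each other as deposited and 0.34 after rescaling. Over the 124 miRNAs compared, the median r with miR-22-3p was 0.44 and 0.09 in the same order.

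The sequences at both ends of this order are shown to compare their seeds, in capitals, with that of miR-22-3p (miR-339-5p at chr5:139369708-139369730, miR-107-3p at chr19:34820700-34820722, both on the - strand, and on the + strand of chromosome 11 miR-142a-5p at 87756867-87756887, miR-497a-5p at 70234730-70234751 and miR-195a-5p at 70235062-70235082).
miR-339-5p: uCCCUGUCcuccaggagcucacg
miR-107-3p: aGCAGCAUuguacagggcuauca
miR-142a-5p: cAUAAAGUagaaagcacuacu
miR-497a-5p: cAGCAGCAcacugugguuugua
miR-195a-5p: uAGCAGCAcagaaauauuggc
miR-497a-5p and miR-195a-5p have 1 seed, AGCAGCA, shared with miR-16-5p, yet r of rescaled levels with miR-22-3p was 0.70 for miR-16-5p. None of these seeds equals that of either miR-22 arm.

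**Figure D4:**
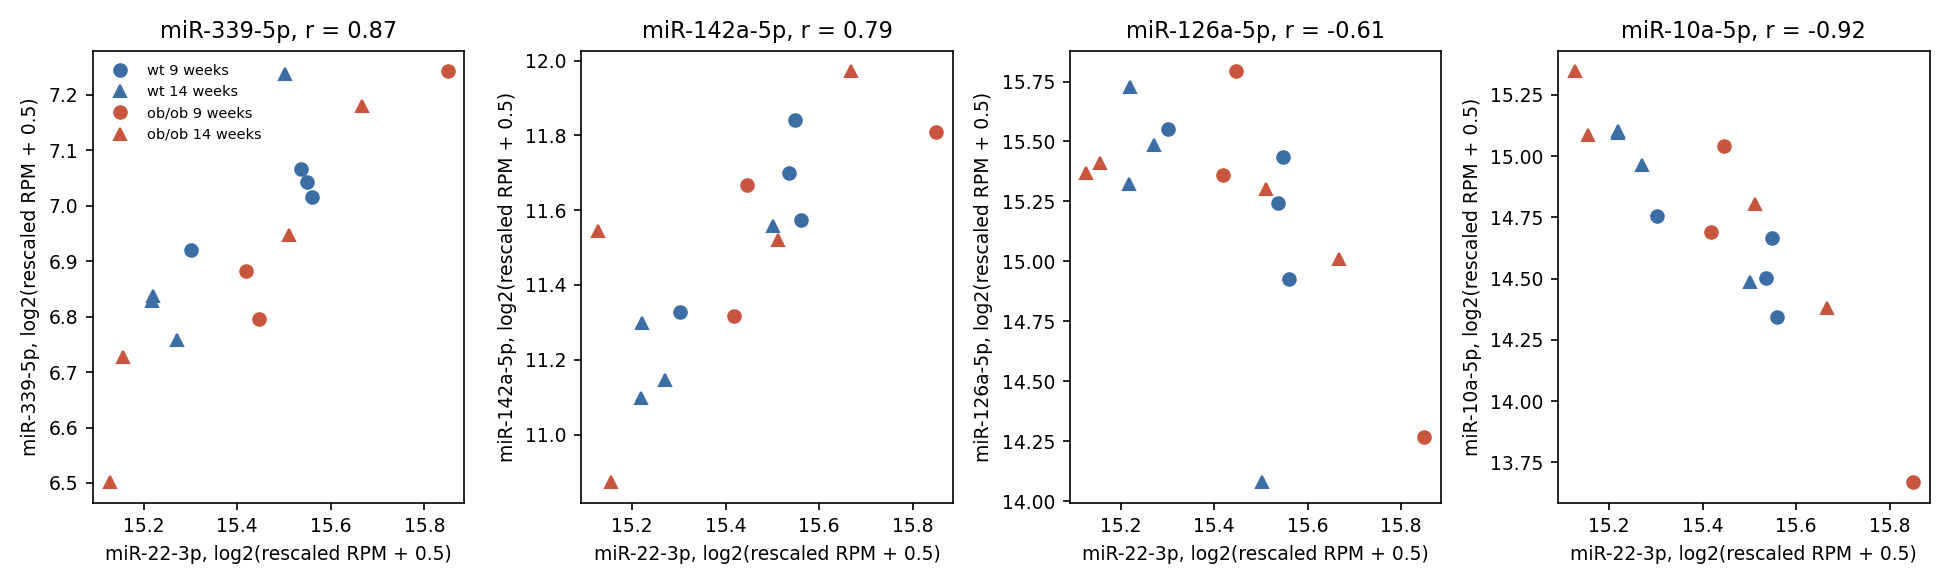
Level of miR-22-3p (x axis) against miR-339-5p, miR-142a-5p, miR-126a-5p and miR-10a-5p (y axes), each as log2(rescaled RPM + 0.5), in 15 libraries rescaled together. Blue is wt, red is ob/ob, circles are 9 weeks and triangles 14 weeks. miR-339-5p and miR-142a-5p go up with miR-22-3p (r = 0.87 and 0.79) and miR-10a-5p goes down (r = -0.92), while r was -0.61 for miR-126a-5p, whose lowest values are a pair of libraries apart from the rest.

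Set against miR-142a-5p, a member of the macrophage list made in blood-derived cells, miR-22-3p varied less than against miR-126a-5p. Since miR-142a-5p was already among the highest r with miR-22-3p, this restates that likeness and is no separate result for macrophage markers. The ratio of miR-22-3p to miR-142a-5p in RPM was 14.7 ± 1.32 at 9 weeks for wt and 15.8 ± 1.82 at 9 weeks for ob/ob. It was 16.4 ± 1.24 and 15.1 ± 3.37 in the same order at 14 weeks, with all 15 libraries between 11.98 and 19.5. These values are levels in RPM, and reads of 2 miRNAs may be captured with unlike efficiency. Another member of the macrophage list, miR-511-3p, had 159 ± 11.8 RPM in wt and 77.9 ± 23.9 RPM in ob/ob at 9 weeks. It was called lower there as deposited (limma adjusted p = 0.00984) but not after rescaling (0.0860). At 14 weeks it had 150 ± 49.6 and 130 ± 20.3 RPM (limma adjusted p = 0.815). The ratio of miR-22-3p to miR-511-3p was not examined.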

How the data were processed

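Small RNA was sequenced from 15 libraries, isolated with the miRNeasy kit, prepared with the TruSeq Small RNA kit and read on a HiSeq, per the labels' protocols. Of tools, cutadapt and bcl2fastq are named in the submitters' processing notes, as are mm10 and GRCm38.p5, but the sources used here give neither aligner, counter nor annotation. The deposited values, 1 table per age, were taken as RPM made by the authors. The unit was inferred, since within a library 100% of the values above 0 were a whole number of steps of 1 size, to within 0.1 reads. That step gave the implied reads and depth, whose reads are not independent molecules.

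log2(RPM + 0.5) was tested for each age with limma 3.58.1 in R 4.3.3 (trend, robust, Benjamini-Hochberg adjustment over all miRNAs tested, threshold 0.05), for miRNAs with at least 1 RPM in a number of libraries equal to the smaller group's. The interaction with age used all 15 libraries. The fold change on this scale understates changes of rare miRNAs. The count test foreseen for count tables was not used. Shares and arm ratios were compared by two-sided exact permutation tests. Median-ratio rescaling used miRNAs with a mean of at least 5 RPM and no value of 0. It was made within each age, except for r, where all 15 libraries were rescaled together. In simulated data with independent noise and no shift shared by a library, limma recovered most of the larger changes set. Recovery of smaller changes, such as that of miR-22-5p, was not a condition of that check. Hairpins were folded with RNAfold 2.7.2, and 218 of 248 names matched a RefSeq mature sequence. Named miRNAs were the miR-22 rows, the 10 highest means, the marker lists, and the 5 highest and 3 lowest r with miR-22-3p. The members, lists and tests were chosen with earlier results of these data known. A further list of miRNAs is not reported here. Alternatives were other pseudocounts, filters, scalings, lanes, a replicate block and leaving out each library. Voom on implied reads and the comparison over hairpins with both arms above 0 were added after the data were seen.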

Additional observations from a re-analysis of the deposited data

Results flagged for a closer look

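The implied depth of wt replicate 1 at 9 weeks, 22.8 M reads, stood apart from the other 3 wt libraries of that age, which had 13.4 to 14.3 M reads (M, 1000000). It was the only value set apart in this way in the 24 groups of values examined, and chance sets apart about 1 group in 20. The same library had the highest miR-22-3p level of all 15, 61428 RPM, which did not stand apart within its group.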

How the results depend on the processing

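Over the alternatives run, 177 values kept their direction and side of the threshold or moved little. Of the rest, 13 moved further, 9 changed direction, 10 no longer passed the threshold and 1 newly passed it. Median-ratio rescaling and scaling to the listed sum without miR-22 turned the 9 week changes to 0.10 and 0.075 for miR-22-3p and to 0.32 and 0.30 for miR-22-5p, and rescaling turned the interaction of miR-22-3p to -0.027. These settings called 38 and 23 miRNAs in place of 67 at 9 weeks and 48 and 50 in place of 26 at 14 weeks. Rescaling gave miR-22-3p in wt at 9 weeks 45033 RPM and rank 1 in wt at 14 weeks, and its rank by median in ob/ob at 14 weeks was 2.

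Leaving out each library gave 53 to 71 calls at 9 weeks and 13 to 46 at 14 weeks, with 46 without wt replicate 1, 15 without wt replicate 3 and 13 without ob/ob replicate 3. The changes then ranged from -0.60 to -0.31 (miR-22-3p) and -0.46 to 0.18 (miR-22-5p, above 0 without ob/ob replicate 3) at 9 weeks, and from 0.12 to 0.37 and 0.84 to 1.15 at 14 weeks. Differences of the share ranged from -1.18 (without ob/ob replicate 2) to 2.21 percentage points at 9 weeks and from -0.13 (without ob/ob replicate 4) to 2.23 at 14 weeks. Those of the log2 arm ratio ranged from -0.49 to -0.08 and from -0.79 to -0.58, with exact permutation p = 0.0571 at -0.58, without ob/ob replicate 2. The interactions ranged from 0.53 to 0.89 and from 0.81 to 1.45. The cause of these shifts was not tested, and a smaller group also has fewer libraries.

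Lane 1 alone called 1 miRNA at 14 weeks and lane 2 alone 51. The share differed by -2.75 percentage points in lane 1. The arm ratio differed by -0.69 and -0.71 in the lanes (exact permutation p = 0.333, the smallest possible there), and miR-22-5p by 1.02 in lane 1. With 5 RPM added, the limma call on the arm ratio was lost (adjusted p = 0.0621). Without a filter the interaction called 4 miRNAs.

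Whether replicate numbers pair the libraries was not settled, as the deviations of same-numbered libraries correlated at -0.14 to 0.28 (9 weeks) and -0.24 to 0.20 (14 weeks). The wt and ob/ob libraries of replicate 1 at 9 weeks and of replicates 2 and 3 at 14 weeks correlated best with each other. At 14 weeks the numbers also follow the lanes. With a replicate block 32 miRNAs were called at 9 weeks, the log2 arm ratio at 14 weeks remained -0.70 (exact sign permutation p = 0.125, the smallest possible), and miR-22-5p passed with a limma adjusted p of 0.0493. The level of miR-22-5p rests on 86 reads in the shallowest library.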
